A study of Mus musculus with 48 samples.

Results

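Coagulation factors and their regulators were represented by 10 genes, picked by symbol from the gene count tables and present among the 54735 genes listed for each library: F13a1, F10, F5, F7, F3, Thbd, Tfpi, Plaur, Plau, and Thbs1. RNA-seq was measured in 3 populations sorted from the spleens of male Balb/c mice aged 10 weeks, wild-type (WT) or carrying the Il1rl1-/- label, the latter for the gene that encodes the IL-33 receptor chain IL1RL1 (ST2). Monocytes were gated as Ly6Glo CD11bhi F4/80-, precursors of red pulp macrophages (pre-RPMs) as Ly6Glo CD11bhi F4/80lo, and red pulp macrophages (RPMs), which clear aged erythrocytes and recycle their iron, as Ly6Glo CD11blo/- F4/80hi. Each of the 6 groups of cell type and genotype held 4 libraries, 1 from each of 4 mice, so that the 3 libraries of a mouse share an animal, and the labels name no treatment. The label names a deletion that is not restricted to a cell type. The chromatin accessibility samples of the study were not analysed here.

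Blood clots form through a cascade of proteases and cofactors. Tissue factor (F3) binds factor VII (F7) and activates factor X (F10), which works with its cofactor factor V (F5) to make thrombin, and factor XIII (A subunit, F13a1) then cross-links the fibrin. Tissue factor pathway inhibitor (Tfpi) and thrombomodulin (Thbd) hold the cascade back, while urokinase (Plau), bound to its receptor (Plaur), generates plasmin, which dissolves fibrin. Most soluble factors are made by the liver, but monocytes and macrophages are known to make some of them, factor XIII A in particular. Thrombospondin 1 (Thbs1), a matrix glycoprotein best known from platelet granules, binds several of these proteins.

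The total count per library was between 3562367 and 6559454, with a median of 4728764.5, and 8 of the 10 genes passed the filter on low counts over the 24 libraries, as 12842 genes did. Levels are given in CPM, counts scaled to a common library total with TMM factors, in the order of mice 1, 2, 3, and 4, and group values as mean ± SD (n = 4). A count of 3 or less in a library, which corresponds to between 0.449 and 0.893 CPM depending on the library, was treated as not told apart from 0. The summed level of 10 red pulp macrophage markers was between 6373 and 8919 CPM in RPM libraries and at most 329 CPM elsewhere. The summed level of 10 monocyte markers was between 1400 and 2587 CPM in monocytes and pre-RPMs and between 1656 and 2088 CPM in RPMs, where Csf1r took most of it, while Ly6c2 was at 2.28 CPM in WT RPMs and 46.2 CPM in WT monocytes. The platelet and megakaryocyte list of 12 genes summed to between 2.24 and 13.4 CPM in any library, and its defining genes Pf4 and Ppbp never exceeded 4 and 5 counts. The 8 erythroid markers summed to between 837 and 23609.5 CPM in RPMs and to at most 617 CPM elsewhere, and their part in the differences with RPMs was not tested. Il1rl1 itself went against the labels in monocytes and pre-RPMs but not, by its means, in RPMs. It was at 4.28, 3.79, 2.75, and 1.95 CPM in WT monocytes and at 12.5, 15.3, 15.3, and 13.2 CPM in monocytes labelled Il1rl1-/-, and the difference passed on the log2 scale, at 2.13 (edgeR's adjusted p = 0.00882, SE 0.23). Pre-RPMs had means of 4.26 ± 1.06 CPM under the WT label and 12.3 ± 0.463 CPM under the Il1rl1-/- label, also a called rise, at 1.52 (edgeR's adjusted p = 0.00107, SE 0.201), whereas in RPMs it was at 1.94 ± 0.7999 and 0.826 ± 0.482 CPM (n = 4 each). In RPMs, the 2 labels overlapped and the filter removed Il1rl1, so that the direction there was not tested. Counts over the whole gene do not show which exons they come from, so that crossed labels and a transcript left by the allele cannot be told apart. Genotypes are therefore named by the label of the library throughout.

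F13a1 had the highest level of the 10 genes per kb of exon in monocytes and pre-RPMs, and Plau had it in RPMs. In WT pre-RPMs, the means were 48.6 CPM per kb for F13a1, 12.6 for Plaur, 9.52 for F5, 8.39 for Thbd, 6.39 for F10, 3.700 for Thbs1, and 2.62 for Plau. The neighbours Plaur and F5, F5 and Thbd, and Thbs1 and Plau overlapped between libraries in that order, whereas F13a1 stood above Plaur, and Thbd above F10, in all 4 libraries without overlap. In WT RPMs, the order was Plau at 3.31 CPM per kb, Plaur at 0.968, Thbd at 0.669, Tfpi at 0.541, F13a1 at 0.321, F5 at 0.258, Thbs1 at 0.207, and F10 at 0.0862. There, Plau stood above Plaur in all 4 libraries without overlap, and each pair of neighbours from Plaur to F10 overlapped. RPMs labelled Il1rl1-/- also began with Plau at 4.67 and Plaur at 1.74 CPM per kb, followed by Tfpi at 0.776, all without overlap between neighbours, and F13a1 was at 0.126. These levels use the exon length that the count tables list for each gene, and a transcript covers only part of it.

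**Figure D1:**
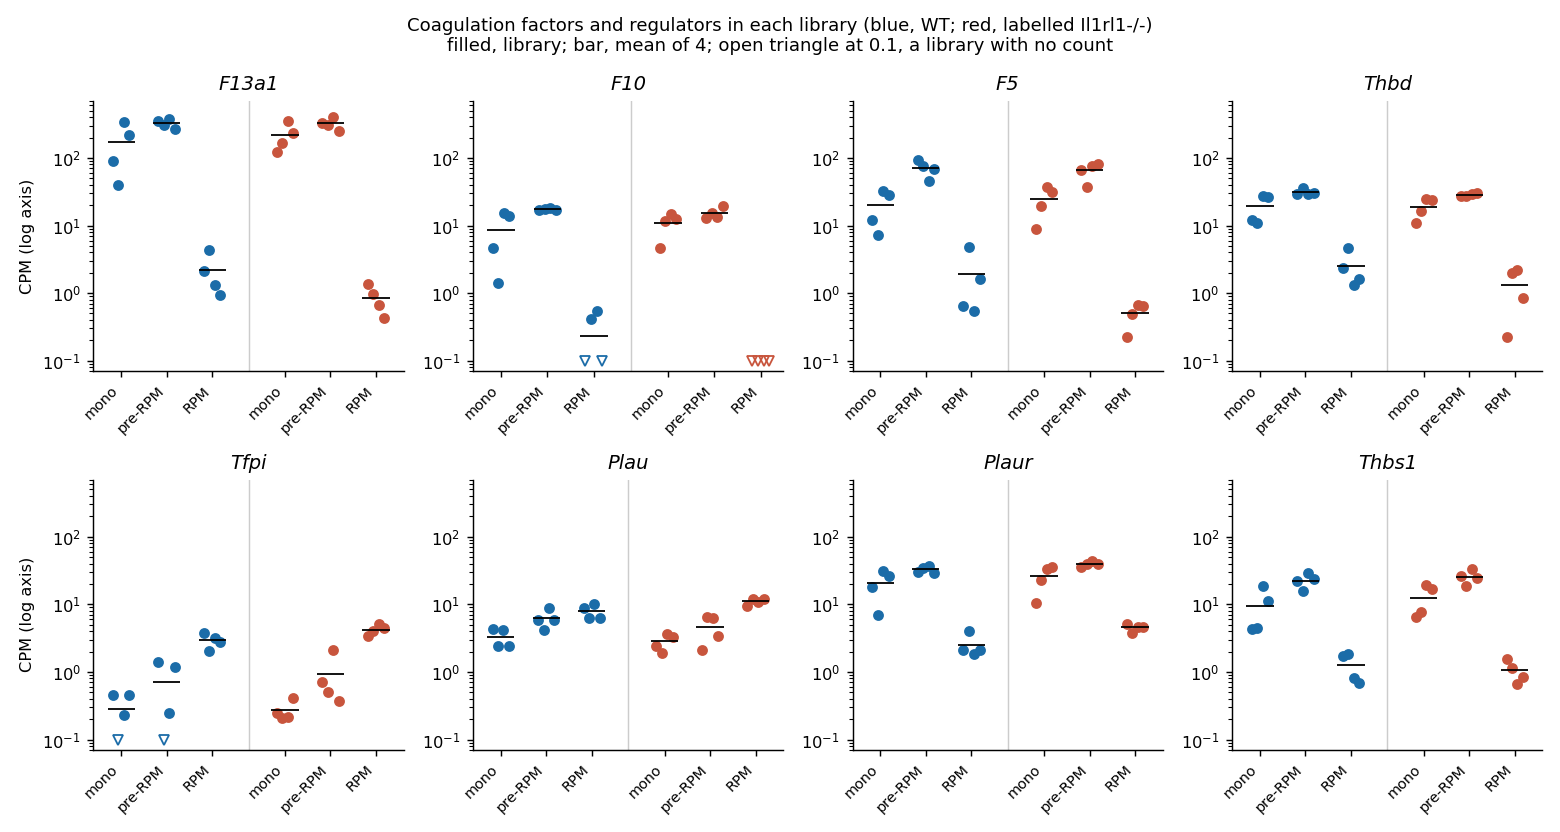
CPM of the 8 genes that passed the filter in each of the 24 libraries, on a log axis, with WT in blue and libraries labelled Il1rl1-/- in red. F13a1, F10, F5, Thbd, Plaur, and Thbs1 sit lower in RPMs than in pre-RPMs of the same label without overlap, whereas Plau and Tfpi do not.

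The stretches of 250 bases before the transcription start are shown for genes at both ends of these patterns, F13a1, F10, F5, and Plaur, which were low in RPMs, Tfpi, which was highest there, and F7, the scarcely counted neighbour of F10. RefSeq promoter sequences (GRCm38.p6) were matched for 7 of the 10 genes, and Thbd, Plau, and Thbs1 were not matched. Each is written 5′ to 3′ on the strand of the gene, with capitals marking matches on either strand to 5 motifs: GAGGAA (the core bound by PU.1), TGANTCA (AP-1), AGATAA (bound by GATA factors), TTGCNNAA (C/EBP), and GGGCGG (SP and KLF factors). Where matches overlap, they run into a single stretch of capitals.
F13a1, minus strand, chr13:37050245-37050494: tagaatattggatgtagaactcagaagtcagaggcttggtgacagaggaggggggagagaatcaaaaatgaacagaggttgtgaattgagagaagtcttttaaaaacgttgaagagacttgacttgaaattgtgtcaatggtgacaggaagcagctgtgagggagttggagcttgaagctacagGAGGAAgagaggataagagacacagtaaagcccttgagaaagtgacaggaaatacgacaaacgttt
F10, plus strand, chr8:13037058-13037307: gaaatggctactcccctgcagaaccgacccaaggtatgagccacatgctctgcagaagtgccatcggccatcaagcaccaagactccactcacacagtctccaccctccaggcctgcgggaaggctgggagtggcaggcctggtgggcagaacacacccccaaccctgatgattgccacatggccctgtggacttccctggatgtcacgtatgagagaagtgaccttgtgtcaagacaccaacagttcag
F5, plus strand, chr1:164151585-164151834: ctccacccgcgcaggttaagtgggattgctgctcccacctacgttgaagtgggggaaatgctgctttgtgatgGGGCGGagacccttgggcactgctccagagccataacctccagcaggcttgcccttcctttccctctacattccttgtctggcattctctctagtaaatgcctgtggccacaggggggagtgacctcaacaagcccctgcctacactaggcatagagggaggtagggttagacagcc
Plaur, plus strand, chr7:24462233-24462482: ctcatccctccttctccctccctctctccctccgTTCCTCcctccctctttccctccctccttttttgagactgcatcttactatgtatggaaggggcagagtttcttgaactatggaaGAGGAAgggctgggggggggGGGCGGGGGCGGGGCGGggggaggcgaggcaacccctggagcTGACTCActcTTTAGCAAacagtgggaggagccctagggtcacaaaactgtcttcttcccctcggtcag
Tfpi, minus strand, chr2:84476760-84477009: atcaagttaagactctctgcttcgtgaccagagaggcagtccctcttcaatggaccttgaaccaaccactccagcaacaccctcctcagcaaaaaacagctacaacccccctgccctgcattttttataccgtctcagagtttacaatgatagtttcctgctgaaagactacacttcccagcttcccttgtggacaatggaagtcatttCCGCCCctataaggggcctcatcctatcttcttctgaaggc
F7, plus strand, chr8:13025784-13026033: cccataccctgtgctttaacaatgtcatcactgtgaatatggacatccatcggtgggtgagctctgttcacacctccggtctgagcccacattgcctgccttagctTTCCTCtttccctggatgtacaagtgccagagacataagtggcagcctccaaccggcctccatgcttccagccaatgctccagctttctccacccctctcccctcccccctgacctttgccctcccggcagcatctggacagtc
The Plaur stretch held 7 matches, 2 of them to GAGGAA, 1 to TGANTCA, 1 to TTGCNNAA, and 3 to GGGCGG, where the last 3 overlap or adjoin each other. The F13a1 stretch held a single GAGGAA match, 66 to 61 bases before the start, the F5 and Tfpi stretches held a single GGGCGG match each, and the F10 stretch held none of the 5. AGATAA was matched in none of the 7 genes. Among all 32851 promoters of the same length, 23.3% held GAGGAA, 6.75% TGANTCA, 9.99% AGATAA, 9.56% TTGCNNAA, and 32.7% GGGCGG. A match describes the letters only, and binding was not measured here.

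The fall from pre-RPMs to RPMs was carried by the coagulation factors, thrombomodulin, the urokinase receptor, and thrombospondin 1. In WT mice, 6 of the 7 genes tested fell and none rose past the threshold for cell types, a change of more than 2-fold with an adjusted p under 0.01, where 24.7% of all genes tested passed, 10.7% by a fall and 14.0% by a rise. In libraries labelled Il1rl1-/-, 6 of 8 fell and 2 rose, where 26.0% of all genes passed, 11.5% by a fall and 14.5% by a rise. The median log2 fold change was −4.13 over the 7 genes in WT and −4.52 over the 8 genes in libraries labelled Il1rl1-/-, or −4.47 with F10 set to its lower bound there, whereas the medians over all genes tested were −0.0012 and −0.0018. Tests were made with edgeR (quasi-likelihood), and p-values were adjusted over all genes tested by the Benjamini-Hochberg method. A gene that passed the filter through its level in a single cell type had to differ. F10, F5, and F13a1 were at or near the floor in RPMs, and Tfpi was near it outside RPMs. Thbd and Thbs1 did not pass the filter among RPM libraries alone either, so that they too passed it here through the other cell type. These counts and medians, here and for monocytes against RPMs, therefore describe the genes tested, and F7, F3, and in WT Tfpi were not among them. The values of p reflect the spread between mice. Since RNA was measured in bulk, fewer cells that express a gene and less of its RNA in each cell cannot be told apart.

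F13a1 (ENSMUSG00000039109, GRCm38, chr13:36867178-37050244, minus strand) encodes the subunit of factor XIII that cross-links fibrin. It was at 89.2, 39.5, 341, and 216 CPM in WT monocytes, at 351, 307, 382, and 269 in WT pre-RPMs, and at 2.12, 4.27, 1.34, and 0.923 in WT RPMs. The libraries labelled Il1rl1-/- held 123, 165, 355, and 234 CPM in monocytes, 333, 305, 406, and 254 in pre-RPMs, and 1.35, 0.981, 0.658, and 0.426 in RPMs. Every RPM library lay below every monocyte and pre-RPM library, with RPM counts from 2 to 21 over both genotypes. On the log2 scale, RPMs differed from pre-RPMs by −7.22 (edgeR's adjusted p = 2.00e-10, SE 0.29) in WT and by −8.58 (edgeR's adjusted p = 2.07e-13, SE 0.23) in libraries labelled Il1rl1-/-. No other gene of the 10 had a fitted fall of this size in WT.

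F10 (ENSMUSG00000031444, chr8:13037308-13056676, plus strand) encodes factor X, the protease at which both arms of the cascade meet. Its levels were 17.2, 17.6, 17.9, and 17.1 CPM in WT pre-RPMs, close together, and 12.8, 15.3, 13.4, and 19.8 CPM in pre-RPMs labelled Il1rl1-/-. In RPMs its counts were 0, 2, 2, and 0 in WT and 0 in all 4 libraries labelled Il1rl1-/-, so that it was at or under the floor in all 8. The pooled rate in WT pre-RPMs was 77.3 times that in WT RPMs (95% exact interval 29.9 to 286, for counting error only), and the fitted difference on the log2 scale −6.14 (edgeR's adjusted p = 9.41e-09, SE 0.38). In libraries labelled Il1rl1-/- it was at least 22.7-fold lower in RPMs than in pre-RPMs, and at least 16.1-fold lower than in monocytes, against a floor of 3 counts in the shallowest RPM library. WT monocytes held 4.58, 1.398, 15.1, and 13.6 CPM, and those labelled Il1rl1-/- held 4.67, 11.8, 14.6, and 12.3 CPM, a wider spread than in pre-RPMs.

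F5 (ENSMUSG00000026579, chr1:164151838-164220277, plus strand) encodes factor V, the cofactor of factor X. It was at 12.2, 7.19, 32.8, and 28.6 CPM in WT monocytes and at 92.8, 74.8, 45.8, and 69.5 CPM in WT pre-RPMs, without overlap. The WT RPM libraries held 0.635, 4.88, 0.534, and 1.62 CPM, from 3, 24, 2, and 7 counts, with the library of mouse 2 above the others. The libraries labelled Il1rl1-/- held 8.86, 19.8, 37.7, and 31.7 CPM in monocytes, 66.7, 37.5, 75.3, and 81.3 in pre-RPMs, and 0.224, 0.4903, 0.658, and 0.639 in RPMs, where no library exceeded 3 counts. F5 in RPMs relative to pre-RPMs was at −5.16 (edgeR's adjusted p = 5.58e-08, SE 0.38) in WT and −6.99 (edgeR's adjusted p = 1.37e-10, SE 0.34) in libraries labelled Il1rl1-/-, both on the log2 scale. Without the WT RPM library of mouse 2, the value in WT was −6.24 (edgeR's adjusted p = 2.27e-09). Since that library was the highest of its group, the deeper fall follows from leaving it out. For the libraries labelled Il1rl1-/-, the pooled rate in pre-RPMs was 125 times that in RPMs (95% exact interval 68.0 to 262).

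The initiators were scarcely counted. F7 (ENSMUSG00000031443, chr8:13026034-13035809) ends 1498 bases before F10 begins on the same strand. Its counts were 1, 1, 1, and 4 in WT pre-RPMs, 0 to 3 in monocytes, 0 or 1 in pre-RPMs labelled Il1rl1-/-, and 0 in all 8 RPM libraries. The count of 4 in 1 WT pre-RPM library was the only one above the floor, against 74, 67, 73, and 72 counts of F10 in the same 4 libraries. F3 (ENSMUSG00000028128, chr3:121723537-121735048), tissue factor, had between 0 and 2 counts in each of the 24 libraries, so it was not detectable at this depth. Neither gene passed the filter in any comparison, and none of their exact 2-sided permutation tests passed after adjustment, the smallest p being 0.0286 for F7 from WT pre-RPMs to RPMs (adjusted p = 0.214 over 30 such tests). With 4 against 4 libraries, 0.0286 is the smallest p this test can give. Over 30 tests, such a p passes after adjustment only if most of them reach it, and many had both groups at or under the floor. The adjusted values of this test, here and below, therefore could not pass and decide nothing about a gene.

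The anticoagulants moved in opposite directions from pre-RPMs to RPMs in libraries labelled Il1rl1-/-. In WT, Thbd also fell, and Tfpi, removed there by the filter, was higher in RPMs without overlap. Thbd (ENSMUSG00000074743, chr2:148404466-148408188, minus strand), which turns thrombin from a clotting to an anticoagulant enzyme, was at 12.2, 10.8, 27.5, and 26.1 CPM in WT monocytes, 29.3, 35.98, 29.7, and 30.00 in WT pre-RPMs, and 2.33, 4.68, 1.34, and 1.62 in WT RPMs. In the libraries labelled Il1rl1-/-, it was at 11.1, 16.2, 24.98, and 23.9 CPM in monocytes, 27.4, 27.6, 29.5, and 30.01 in pre-RPMs, and 0.224, 1.96, 2.19, and 0.852 in RPMs. The 3 cell types did not overlap within either genotype. Thbd in RPMs relative to pre-RPMs was at −3.63 (edgeR's adjusted p = 2.89e-08, SE 0.25) in WT and −4.43 (edgeR's adjusted p = 1.26e-09, SE 0.26) in libraries labelled Il1rl1-/- on the log2 scale.

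Tfpi (ENSMUSG00000027082, chr2:84432855-84476775, minus strand), the inhibitor of the tissue factor and factor VIIa complex, had few counts and was highest in RPMs. Its counts were 3, 0, 1, and 3 in WT monocytes, 6, 0, 1, and 5 in WT pre-RPMs, and 18, 10, 12, and 12 in WT RPMs. In libraries labelled Il1rl1-/-, they were 1, 1, 1, and 2 in monocytes, 3, 3, 7, and 2 in pre-RPMs, and 15, 25, 23, and 21 in RPMs. The RPM libraries, at 3.81, 2.03, 3.21, and 2.77 CPM in WT and 3.36, 4.09, 5.04, and 4.47 CPM in those labelled Il1rl1-/-, lay above all monocyte and pre-RPM libraries of their genotype. Tfpi passed the filter through its level in RPMs in libraries labelled Il1rl1-/-, where it rose by 2.295 (edgeR's adjusted p = 2.18e-04, SE 0.41) on the log2 scale from pre-RPMs to RPMs and by 3.84 (edgeR's adjusted p = 4.50e-06, SE 0.38) from monocytes to RPMs. Without the pre-RPM library of mouse 3 labelled Il1rl1-/-, the first value was 2.91. That library was the highest of its group, so the larger rise follows from leaving it out. In WT, the filter removed Tfpi from both comparisons, where the exact 2-sided permutation test gave p = 0.0286 each (adjusted p = 0.214), the smallest it can give, and the ratio of pooled rates in RPMs to monocytes was 9.47 (95% exact interval 4.29 to 24.7). The list of 10 endothelial markers moved with Tfpi, at between 10.7 and 30.8 CPM in monocytes and pre-RPMs and between 119 and 143 CPM in RPMs. Of the RPM sum, Pecam1, which macrophages also express, made up 121 CPM in WT and 119 CPM in those labelled Il1rl1-/-, while Cdh5, Tek, Emcn, and Egfl7 had at most 5 counts in any library. Of the 10 markers, 5 had no library above 3 counts in WT RPMs and 3 in RPMs labelled Il1rl1-/-, beside 6 or 7 in monocytes and pre-RPMs. The part of endothelial RNA in the rise of Tfpi was not tested.

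Urokinase and its receptor separated in RPMs. Plaur (ENSMUSG00000046223, chr7:24462484-24475968, plus strand), which holds urokinase at the cell surface, was at 18.2, 6.99, 31.2, and 25.9 CPM in WT monocytes, 30.2, 34.9, 37.5, and 29.5 in WT pre-RPMs, and 2.12, 4.07, 1.87, and 2.08 in WT RPMs. In libraries labelled Il1rl1-/-, it was at 10.6, 22.9, 33.8, and 36.2 CPM in monocytes, 35.5, 39.3, 43.8, and 40.1 in pre-RPMs, and 5.16, 3.76, 4.605, and 4.69 in RPMs. Its fall from pre-RPMs to RPMs, without overlap, was −3.705 (edgeR's adjusted p = 3.58e-09, SE 0.21) in WT and −3.18 (edgeR's adjusted p = 2.85e-11, SE 0.14) in libraries labelled Il1rl1-/- (log2 fold changes). Plau (ENSMUSG00000021822, chr14:20836660-20843385, plus strand), the urokinase gene, was at 4.28, 2.396, 4.13, and 2.397 CPM in WT monocytes, 5.82, 4.202, 8.83, and 5.95 in WT pre-RPMs, and 8.68, 6.31, 10.2, and 6.23 in WT RPMs. Monocytes labelled Il1rl1-/- held 2.46, 1.89, 3.66, and 3.29 CPM, pre-RPMs 2.13, 6.44, 6.25, and 3.36, and RPMs 9.42, 11.9, 10.96, and 11.9. In WT, pre-RPMs and RPMs overlapped, with a difference on the log2 scale of 0.28 (edgeR's adjusted p = 0.382, SE 0.25). It was 1.23 (edgeR's adjusted p = 0.00118, SE 0.27) in libraries labelled Il1rl1-/-, where the groups did not overlap, so that Plau rose there, although the rise did not pass edgeR's test for a change above 2-fold (glmTreat, adjusted p = 0.327). The test of the difference between the changes gave 0.96 (edgeR's adjusted p = 0.557, SE 0.39), so that no difference was shown.

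Thbs1 (ENSMUSG00000040152, chr2:118111876-118127133, plus strand) followed the coagulation factors. It was at 4.28, 4.39, 18.6, and 11.1 CPM in WT monocytes, 21.9, 15.8, 28.7, and 23.6 in WT pre-RPMs, and 1.69, 1.83, 0.802, and 0.693 in WT RPMs, while the libraries labelled Il1rl1-/- held 6.396, 7.77, 19.2, and 16.9 CPM in monocytes, 26.01, 18.8, 33.3, and 24.8 in pre-RPMs, and 1.57, 1.14, 0.658, and 0.852 in RPMs. No RPM library overlapped any other library of its genotype. From pre-RPMs to RPMs, Thbs1 moved on the log2 scale by −4.13 (edgeR's adjusted p = 2.88e-08, SE 0.29) in WT and −4.61 (edgeR's adjusted p = 7.32e-10, SE 0.26) in libraries labelled Il1rl1-/-.

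**Figure D2:**
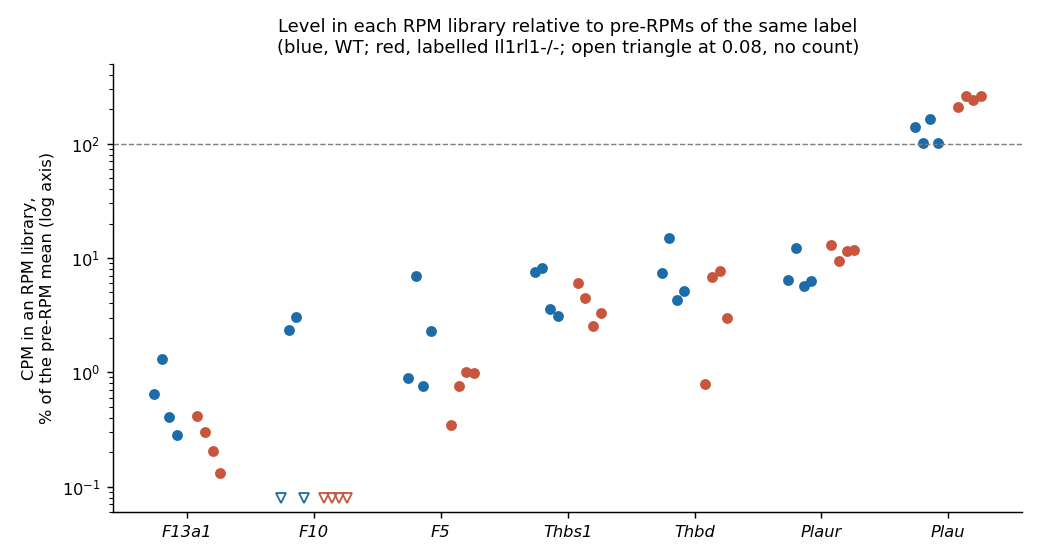
CPM in each RPM library as a percentage of the pre-RPM mean of the same label, on a log axis, for 7 genes (WT in blue, libraries labelled Il1rl1-/- in red), with libraries without a count as open triangles at the foot of the axis. F10 was at or under the floor of 3 counts in every RPM library, and the median in WT was 0.527% for F13a1, 1.59% for F5, 5.55% for Thbs1, 6.31% for Thbd, 6.35% for Plaur, and 121% for Plau.

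Expressed as a share of the pre-RPM mean, the 6 genes that fell covered different depths. The WT RPM libraries kept 0.282% to 1.31% of the pre-RPM level of F13a1 and 0.755% to 6.90% of that of F5. They kept 3.08% to 8.15% of the level of Thbs1, 4.28% to 14.98% of Thbd, and 5.66% to 12.3% of Plaur. Shares that rest on 3 counts or fewer are not told apart from 0. Of the shares given here, these were in WT those of F5 in mice 1 and 3 and of Thbs1 in mice 3 and 4. In libraries labelled Il1rl1-/-, they were all 4 shares of F5, those of F13a1 in mice 3 and 4, and the lowest shares of Thbs1 and Thbd. In RPMs labelled Il1rl1-/-, the shares were 0.131% to 0.415% for F13a1, 0.344% to 1.01% for F5, 2.56% to 6.10% for Thbs1, 0.783% to 7.66% for Thbd, and 9.48% to 12.999% for Plaur. The highest WT share of F13a1, F5, Thbd, Plaur, and Thbs1 came from the same library, that of mouse 2, where the red pulp macrophage markers summed to the lowest level of the 8 RPM libraries, 6373 CPM. The neutrophil list of 10 genes was also highest there among RPM libraries, at 20.1 CPM. Whether other cells in that library contributed was not tested. For Plau, the shares were 101% to 164% in WT and 207% to 262% in RPMs labelled Il1rl1-/-.

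Between monocytes and RPMs, coagulation factors, Thbd, Plaur, and Thbs1 fell again. In WT, 5 of the 6 genes tested fell and 1, Plau, rose, where 23.9% of all genes tested passed, 10.5% by a fall and 13.4% by a rise. In libraries labelled Il1rl1-/-, 6 of 8 fell and 2, Plau and Tfpi, rose, where 25.9% of all genes tested passed, 11.6% by a fall and 14.3% by a rise. F13a1 in RPMs relative to monocytes was at −6.27 (edgeR's adjusted p = 4.83e-05, SE 0.75) in WT on the log2 scale and −7.95 (edgeR's adjusted p = 2.32e-08, SE 0.43) in libraries labelled Il1rl1-/-. F5 changed by −3.34 (SE 0.64) and −5.53 (SE 0.54), Thbd by −2.91 (SE 0.44) and −3.79 (SE 0.41), Plaur by −3.003 (SE 0.46) and −2.51 (SE 0.34), and Thbs1 by −2.87 (SE 0.58) and −3.54 (SE 0.44), in WT and in libraries labelled Il1rl1-/-, as log2 fold changes that each passed. Without the WT RPM library of mouse 2, the highest of its group in F5, the value of F5 in WT was −4.40. The deeper fall follows from that omission. The rise of Plau was 1.22 (edgeR's adjusted p = 0.00385, SE 0.28) in WT and 1.96 (edgeR's adjusted p = 1.65e-05, SE 0.23) in libraries labelled Il1rl1-/-. In WT, this call was lost when either of the monocyte libraries of mice 2 and 4 or the RPM libraries of mice 1 and 3 was left out, with edgeR's adjusted p between 0.0114 and 0.0147. Under edgeR's test for a change above 2-fold in WT (glmTreat), Plau (adjusted p = 0.3696) and Thbs1 (adjusted p = 0.0125) did not pass. F10, which the filter removed in WT, had a ratio of pooled rates of 38.0 in monocytes to RPMs (95% exact interval 14.6 to 141), and an exact 2-sided permutation p of 0.0286 (adjusted p = 0.214).

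**Figure D3:**
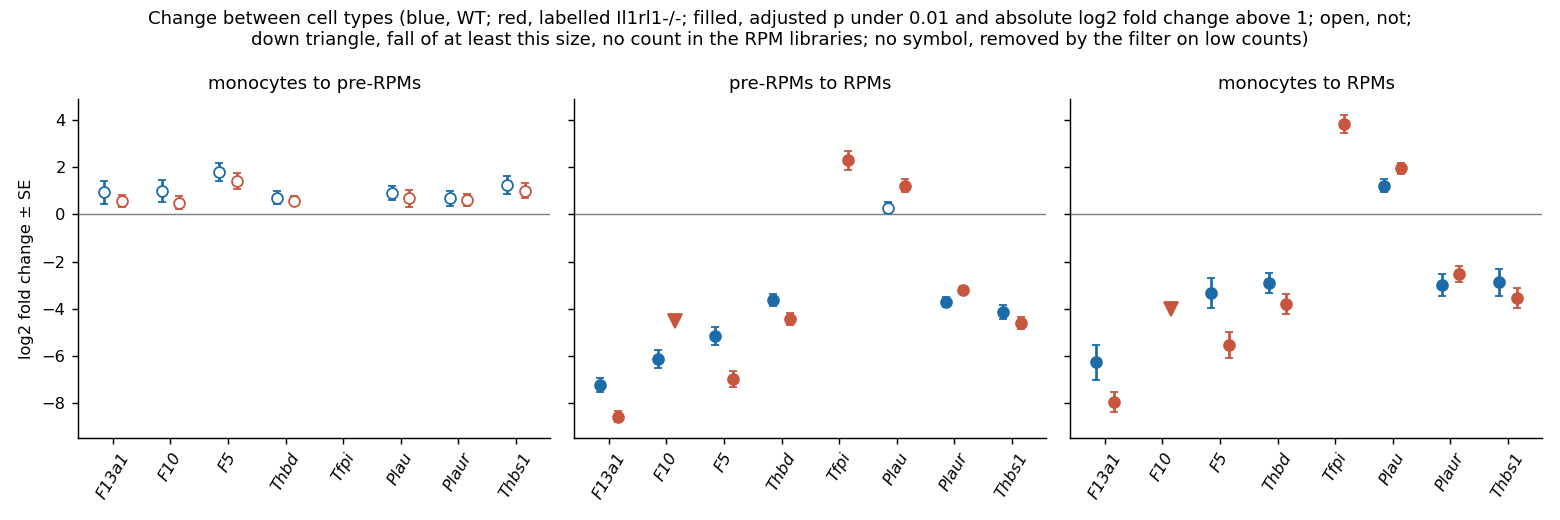
Log2 fold changes ± SE between cell types for 8 genes, with WT in blue and libraries labelled Il1rl1-/- in red, filled where the change passed the threshold. F5 was the highest value from monocytes to pre-RPMs in both genotypes, at 1.81 and 1.40, and only Plau and Tfpi lie above 0 in the comparisons with RPMs.

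From monocytes to pre-RPMs, none of the 7 genes tested passed the threshold in either genotype, where 3.57% of all genes passed in WT and 4.85% in libraries labelled Il1rl1-/-. In each genotype, 4 of the 7 had an unadjusted p under 0.05. Of all genes tested, 3540 of 11091 had it in WT and 3425 of 11196 in libraries labelled Il1rl1-/-. DESeq2 called 1 of these coagulation genes in WT and 0 in libraries labelled Il1rl1-/-, beside 694 and 739 over all genes. All 7 log2 fold changes were above 0 in both, with medians of 0.93 and 0.61 beside 0.0069 and −0.0018 over all genes tested. F5 came closest, at 1.81 (edgeR's adjusted p = 0.0123, SE 0.39) in WT, without overlap, and 1.400 (edgeR's adjusted p = 0.0156, SE 0.34) in libraries labelled Il1rl1-/-, with overlap. Thbs1 followed at 1.26 (edgeR's adjusted p = 0.0539, SE 0.39) and 1.01 (edgeR's adjusted p = 0.0371, SE 0.300), and F13a1 was at 0.93 (SE 0.48) and 0.57 (SE 0.27). Mice contributed a library to each cell type, and with the mouse number as a block Thbs1 passed in WT (edgeR's adjusted p = 0.00911), and F5 and Thbs1 passed in libraries labelled Il1rl1-/- (edgeR's adjusted p = 0.00141 and 0.00303). With the monocyte library of mouse 3 left out in either genotype, F5 and Thbs1 passed, so that 2 genes were called in each. The values were 2.12 and 1.75 in WT and 1.68 and 1.29 in libraries labelled Il1rl1-/-. That library was the highest of its group in both genes, so the larger rise follows from leaving it out.

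The monocyte libraries differed among themselves in the same genes. In WT monocytes, 9 NK and T cell markers summed to 1451, 1708, 513, and 948 CPM in mice 1, 2, 3, and 4, and in monocytes labelled Il1rl1-/- to 1400, 1065, 453, and 708 CPM. Every pre-RPM library held between 19.6 and 145 CPM and every RPM library between 48.1 and 117 CPM of them. In each genotype, the order of the monocyte libraries by F13a1 was the reverse of their order by these markers. F10, F5, Thbd, Plaur, and Thbs1 were likewise lower in mice 1 and 2 than in mice 3 and 4 in both genotypes. Neutrophil markers, at between 759 and 2462 CPM in monocytes against 156 to 394 CPM in pre-RPMs, did not follow that order. The gate of these cells, as labelled, used Ly6G, CD11b, and F4/80. The study also describes these populations among cells low for CD11c and for the surface marker NK1.1. The part of NK and T cell RNA in the lower values was not tested.

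**Figure D4:**
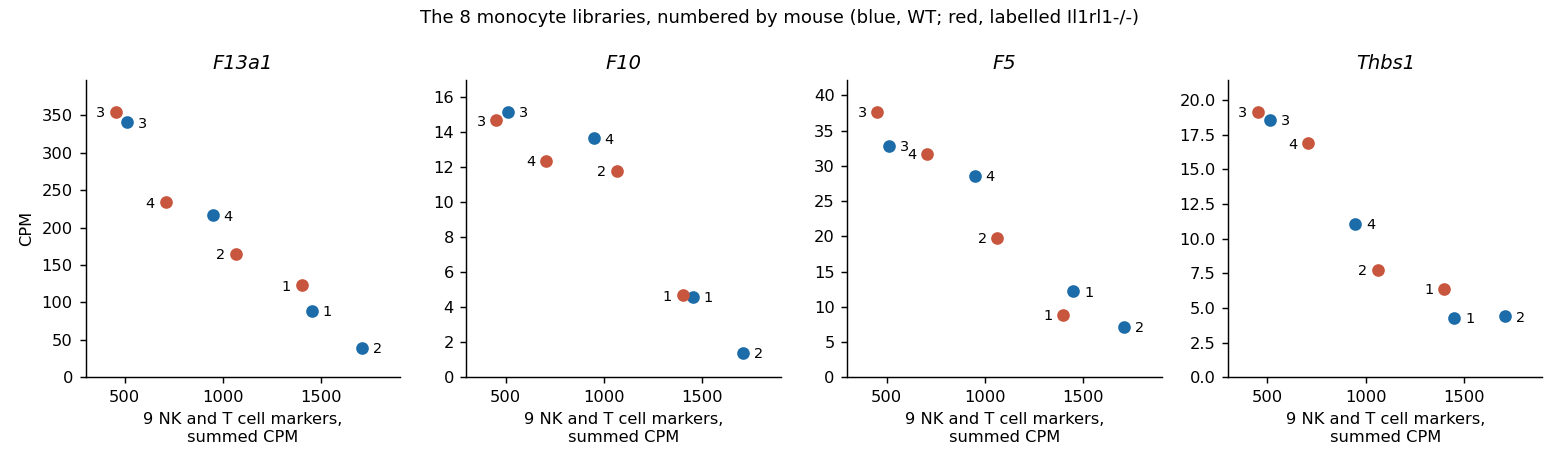
CPM of F13a1, F10, F5, and Thbs1 against the summed CPM of 9 NK and T cell markers in the 8 monocyte libraries, numbered by mouse (WT in blue, labelled Il1rl1-/- in red). The libraries of mice 3 and 4 lie to the upper left, with F13a1 at 341 and 216 CPM in WT, and those of mouse 1 and WT mouse 2 to the lower right.

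Without the monocyte libraries of mice 1 and 2, a comparison chosen after the values were seen, the differences between monocytes and pre-RPMs were smaller for F13a1, F10, F5, Thbd, Plaur, and Thbs1. Since these libraries were the lowest in those genes, this direction follows from the choice, and only the size that is left is given. F13a1 was then at 0.24 (SE 0.19) in WT and 0.13 (SE 0.18) in libraries labelled Il1rl1-/-, F10 at 0.28 (SE 0.17) and 0.19 (SE 0.20), and Thbd at 0.22 (SE 0.15) and 0.22 (SE 0.12), all as log2 fold changes. Plaur was at 0.22 (SE 0.16) and 0.17 (SE 0.12), and Thbs1 at 0.63 (SE 0.24) and 0.48 (SE 0.19). F5 remained the largest, at 1.21 (SE 0.22, edgeR's adjusted p = 0.0042) in WT, where it passed, and 0.89 (SE 0.24, edgeR's adjusted p = 0.029) in libraries labelled Il1rl1-/-, where it did not. From WT monocytes to RPMs, the values were −6.96 for F13a1, −3.93 for F5, and −3.49 for Thbs1, and Plau, at 1.28, no longer passed (edgeR's adjusted p = 0.0109).

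Between genotypes, none of the 10 genes passed at an adjusted p under 0.05 in any cell type. In monocytes, 0 of 7 genes tested were called, where 0.0614% of all genes tested were. None had an unadjusted p under 0.05, beside 410 of all 11405 genes. In pre-RPMs, 0 of 7 were called, where 0.552% of all genes tested were. Of the 7, 1, Plaur, had an unadjusted p under 0.05, beside 941 of all 10698 genes. In RPMs, 0 of 3 were called, where 0.233% of all genes tested were. Of the 3, 2, Plaur and Plau, had an unadjusted p under 0.05, beside 811 of all 11150 genes. DESeq2 called none of the 10 in any of the 3 cell types.

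In monocytes, the log2 fold changes in libraries labelled Il1rl1-/- relative to WT lay between −0.22 (SE 0.32) for Plau and 0.41 (SE 0.51) for Thbs1. Errors were smaller in pre-RPMs, where F13a1 was at 327 ± 49.6 CPM in WT and 324 ± 63.4 in libraries labelled Il1rl1-/- (n = 4 each), a log2 fold change of −0.018 (SE 0.14). Plaur was at 33.05 ± 3.82 and 39.7 ± 3.397 CPM in pre-RPMs, a difference of 0.26 (edgeR's adjusted p = 0.503, SE 0.11) on the log2 scale, and at 2.53 ± 1.03 and 4.55 ± 0.582 CPM in RPMs, a difference of 0.798 (edgeR's adjusted p = 0.583, SE 0.296) on the log2 scale. In RPMs, the groups overlapped through the WT library of mouse 2, and without it the value was 1.15 (edgeR's adjusted p = 0.39). That library was the highest of the WT RPMs in Plaur, so the larger value follows from leaving it out. Plau was at 7.84 ± 1.91 CPM in WT RPMs and 11.1 ± 1.19 CPM in those labelled Il1rl1-/-, with 0.501 (edgeR's adjusted p = 0.616, SE 0.19) on the log2 scale. For Tfpi in RPMs, the value was 0.51 (edgeR's adjusted p = 0.733, SE 0.27). F13a1, F5, Thbd, and Thbs1 were removed by the filter in RPMs, and their exact 2-sided permutation tests gave p = 0.143, 0.171, 0.229, and 0.657.

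**Figure D5:**
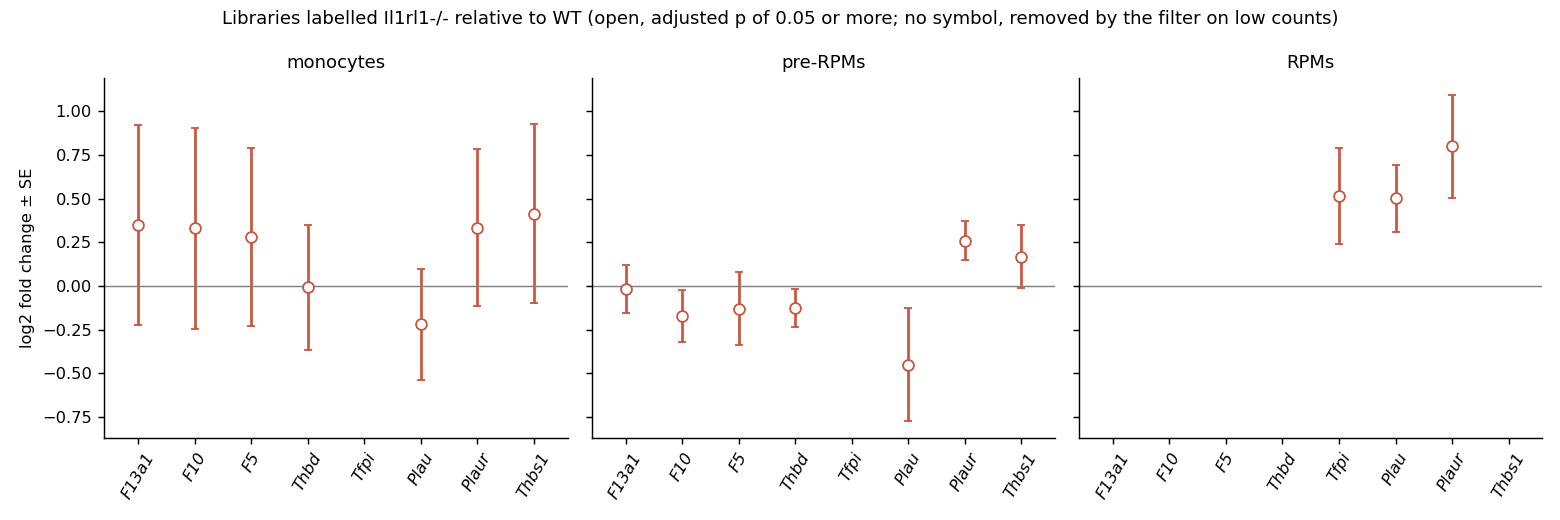
Log2 fold changes ± SE in libraries labelled Il1rl1-/- relative to WT in monocytes, pre-RPMs, and RPMs. No gene passed, and all values lie between −0.45 for Plau in pre-RPMs and 0.80 for Plaur in RPMs.

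Whether the change between cell types differed with the genotype label was tested as an interaction, and none of the 10 genes passed. From monocytes to pre-RPMs, 0 of 7 were called, where 0.0% of all genes tested were, with edgeR calling 0 of 11960 genes, 454 of them at an unadjusted p under 0.05, and DESeq2 calling 0. From pre-RPMs to RPMs, 0 of 8 were called, where 0.107% of all genes were. Of the 8, 4 had an unadjusted p under 0.05, beside 914 of all 12150 genes. Among the 4 was F13a1 at −1.34 (edgeR's adjusted p = 0.512, SE 0.497). From monocytes to RPMs, 0 of 8 were called, where 0.0318% of all genes were. None had an unadjusted p under 0.05, beside 609 of all 12592 genes. DESeq2 called none of the 10 in these comparisons. The genotypes share no library, but the comparisons between cell types share theirs, so the values of the 3 are not independent.

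The wider pathway was read from 55 genes in 4 groups, all listed in the count tables. Of these, 24 had no library above 3 counts, among them the liver-made factors F2, F9, F11, and F12, the fibrinogen chains Fga and Fgg, and Plat, the tissue plasminogen activator, and 16 were tested in at least 1 comparison. From WT pre-RPMs to RPMs, 5 of 16 rose and 3 fell, where 14.0% of all genes tested rose and 10.7% fell, with a median log2 fold change of 0.34 over the 16. Under the Il1rl1-/- label, 5 rose and 3 fell, where 14.5% and 11.5% of all genes did, with Vkorc1 and Plgrkt among the rises in place of Vwf and Lrp1. Each of these genes was higher in RPMs under both labels without overlap, so that the lists differ by the thresholds. As log2 fold changes, Lrp1 was at 0.95 and Vwf at 0.64 under the Il1rl1-/- label. Vkorc1 was at 1.03 (edgeR's adjusted p = 0.0159) and Plgrkt at 0.63 in WT. From WT monocytes to RPMs, 5 of 16 rose and 4 fell, where 13.4% and 10.5% of all genes did, and in libraries labelled Il1rl1-/- 5 rose and 3 fell, where 14.3% and 11.6% did. From monocytes to pre-RPMs, 1 of 15 fell and none rose in either genotype, where 3.57% of all genes passed in WT and 4.85% in libraries labelled Il1rl1-/-, and none was called between genotypes or in an interaction.

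Among the coagulation enzymes, cofactors, and fibrinogen, 3 of 7 tested rose from WT pre-RPMs to RPMs and none fell, beside 14.0% and 10.7% of all genes. Tgm2, a transglutaminase of the same enzyme family as factor XIII, was at 15.1 ± 2.498 CPM in WT pre-RPMs and 205 ± 9.01 CPM in WT RPMs (n = 4 each). On the log2 scale, it rose by 3.72 (edgeR's adjusted p = 1.20e-10, SE 0.14), and by 3.504 (edgeR's adjusted p = 5.54e-13, SE 0.105) in libraries labelled Il1rl1-/-, opposite in direction to that of F13a1. Mcfd2, which helps factors V and VIII leave the endoplasmic reticulum, rose by 1.29 (edgeR's adjusted p = 1.11e-06, SE 0.13) on the log2 scale in WT. Vwf, the other one of the group that rose, named after its values were seen, encodes von Willebrand factor, which carries factor VIII and is made mainly by endothelial cells and megakaryocytes, and it was at 1.23 (edgeR's adjusted p = 7.61e-04, SE 0.24) in WT and at 0.64 (edgeR's adjusted p = 0.00244, SE 0.15), without a call, in libraries labelled Il1rl1-/-. The endothelial markers, described with Tfpi, also summed to more in RPMs, and their part in the rise of Vwf was not tested. Of the anticoagulants, 2 were tested and 1 fell, where 10.7% of all genes did, Pros1, which encodes protein S, the cofactor of activated protein C. It went from 15.1 ± 2.64 to 0.766 ± 0.347 CPM in WT (n = 4 each), which is −4.25 (edgeR's adjusted p = 2.57e-08, SE 0.29) on the log2 scale.

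In the fibrinolysis group, 4 were tested from WT pre-RPMs to RPMs, of which 1 rose and 2 fell, beside 14.0% and 10.7% of all genes. S100a10 and Anxa2, whose products form the complex that binds plasminogen at the cell surface, changed by −3.04 (edgeR's adjusted p = 1.42e-07, SE 0.25) and −2.304 (edgeR's adjusted p = 5.22e-09, SE 0.13) on the log2 scale, both falls. Lrp1, a receptor that clears protease and inhibitor complexes, was at 448 ± 298 CPM in WT monocytes and 2024 ± 129 CPM in WT RPMs (n = 4 each), a rise of 2.15 (edgeR's adjusted p = 0.00161, SE 0.42) on the log2 scale. Of the receptors and relatives, 3 were tested, and F2r, the thrombin receptor PAR1, changed. It was at 21.4 ± 10.1 CPM in WT monocytes, 2.78 ± 1.73 CPM in WT pre-RPMs, and 9.19 ± 0.582 CPM in WT RPMs (n = 4 each). F2r changed by −2.93 (edgeR's adjusted p = 0.00194, SE 0.45) from monocytes to pre-RPMs and by 1.66 (edgeR's adjusted p = 5.91e-04, SE 0.32) from pre-RPMs to RPMs in WT, both on the log2 scale and without overlap. In monocytes, F2r was at 27.9, 31.2, 9.18, and 17.2 CPM in WT and 20.7, 17.02, 7.11, and 12.6 CPM in libraries labelled Il1rl1-/-, the same order of libraries as for the 9 NK and T cell markers, which were at most 145 CPM in pre-RPMs. The part of NK and T cell RNA in the fall of F2r was not tested.

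The genes with the most similar profiles over the 24 libraries were looked up for the 8 genes that passed the filter. For F13a1, they included Fn1 (Pearson's r of log2 CPM = 0.996) and Lyz2 (0.996) among 12842 genes. For F10, they were Plcb1 (0.989), Ms4a6c (0.989), and Pik3r6 (0.986), and for F5, Ccl6 (0.982), Plcb1 (0.979), and Msrb1 (0.979). For Thbd, they were Alox5ap (0.981), Gm38377 (0.980), and Plcb1 (0.980), for Plaur, Csgalnact2 (0.981), Ptpro (0.981), and Msr1 (0.980), and for Thbs1, Hdac5 (0.990), Plxnd1 (0.987), and Prkcd (0.987). Tfpi was most like Hmox2 (0.937), Snx13 (0.926), and Atp6v0a1 (0.921), and Plau most like Gm44250 (0.880), Gss (0.871), and Gatm (0.871). These correlations are descriptions over libraries that share mice and cell types.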

How the data were processed

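RNA-seq of 24 libraries was used, 4 mice in each of 6 groups defined by sorted cell type and genotype label, and the other 24 of the 48 samples, of chromatin accessibility, were not analysed here. Per the file headers, the authors counted read pairs over exons by gene name with featureCounts 1.6.2, taking the reverse strand into account, on GRCm38 with Ensembl release 95, and deposited the counts unfiltered and not normalized. The submitters' processing notes name cutadapt 2.8 and STAR 2.5.1.

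Counts were read as deposited. CPM used TMM factors (0.797 to 1.38) over the 24 libraries, with a prior count of 2 on the log2 scale. Each pair of groups was fitted with edgeR 4.0.16 (TMM, filterByExpr, glmQLFit, and glmQLFTest) in R 4.3.3, and interactions were fitted over 16 libraries. Changes between cell types were called at an adjusted p below 0.01 and an absolute log2 fold change above 1, and changes between genotypes and interactions at an adjusted p below 0.05. The SE was derived from the F statistic. Genes removed by the filter were tested by exact 2-sided permutation in SciPy 1.17.1. Ratios of pooled rates carry exact binomial intervals at 95%, and these intervals and the floor of 3 counts cover counting error only. DESeq2 1.42.0 and further settings were alternatives, and the fitting code was tested on simulated counts. Motifs were searched in both strands of RefSeq promoters.

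Gene names joined by symbol cannot separate loci that share a name. A single gene, Gm42418, which overlaps ribosomal RNA sequence, took 24.41% to 38.75% of all counts and was left out in an alternative. No 2 libraries of a group were alike within counting noise (36 pairs, lowest chi-square per degree of freedom 3.846). Within a genotype, libraries with the same number come from the same mouse by the labels, and their deviations from the group means correlated by 0.063 to 0.208 on average. Between genotypes, libraries with the same number come from different mice, but they also correlated, by 0.257 on average in monocytes (lowest pair 0.118), 0.092 in pre-RPMs, and 0.162 in RPMs (lowest pair 0.149), so that the number was tried as a block there too. The 10 genes, the pathway list, and the marker lists were chosen with earlier results of these data known. The pathway genes named were those with the 3 largest rises and falls among called genes without overlap in each WT comparison of cell types, and the most alike genes were the top 3 by Pearson's r of log2 CPM, of which 1 is not reported here.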

Additional observations from a re-analysis of the deposited data

Results flagged for a closer look

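In 3 of 44 groups of 4 libraries tested by Dixon's criterion, 1 library stood apart from the other 3, where chance flags about 1 in 20 groups. F7 was at 0.952 CPM, from 4 counts, in the WT pre-RPM library of mouse 4, above the other 3 of its group (gap over range 0.958). Thbd was at 35.98 CPM in the WT pre-RPM library of mouse 2, the highest of that group (0.897). Plaur was at 4.07 CPM in the WT RPM library of mouse 2, the highest of that group (0.888), and this library was also the highest of the WT RPMs for F13a1, F5, Thbd, and Thbs1.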

How the results depend on the processing

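Settings that left out 1 library, changed the size factors, the filter, or the tool, fitted all 24 libraries together, or added the mouse number as a replicate block changed the following calls. From WT monocytes to pre-RPMs, where 0 genes were called, DESeq2 called 1, all genes with at least 1 count called 3, all 24 libraries in 1 fit called 1, the replicate block called 1, omission of the monocytes of mice 1 and 2 (chosen after seeing the data) called 1, and leaving out 1 library called 0 to 2. In the libraries labelled Il1rl1-/-, the last gave 0 to 2, all genes with at least 1 count gave 2, and the replicate block gave 2. The filter of 10 counts in every library removed most of the genes by construction and called 0 from WT pre-RPMs to RPMs and 1 in each of the other 3 comparisons with RPMs, with no gene left in 2 interactions. All genes with at least 1 count gave 1 call in the interaction from pre-RPMs to RPMs and 2 in that from monocytes to RPMs. From WT monocytes to RPMs, DESeq2 called 8 genes in place of 6, and without the WT RPM library of mouse 2 there were 7 calls from WT pre-RPMs to RPMs and 8 from WT monocytes to RPMs, so that the absence of Tfpi and F10 there depends on the filter. The block changed no other call, and between genotypes it called 0.

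Reversals concerned uncalled values between genotypes, and their cause was not tested. In monocytes, Thbd, at −0.0075, was at 0.0026 with RLE size factors, 0.0032 with all libraries in 1 fit, 0.018 with the replicate block, and −0.20 to 0.22 with 1 library left out. Without mice 1 and 2, F10 in monocytes was at −0.089 and Plau at 0.14. With 1 library left out, F10 in monocytes ranged from −0.015 to 0.71, F5 in monocytes from −0.0026 to 0.61, F13a1 in pre-RPMs from −0.14 to 0.085, and F5 in pre-RPMs from −0.29 to 0.071. At this depth F3 and F7 lay near the floor, so that no difference in them was detectable.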
